A study of Bos taurus with 19 samples.

Results

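The secreted regulators of Wnt signaling described here are 8 genes, namely the ligands WNT2B and WNT11, the antagonists FRZB, SFRP1, SFRP2, SFRP4 and DKK3, and the R-spondin RSPO3. They were chosen by name, with earlier results of these data known, by taking every probe set whose single gene symbol was one of these names. This gave 8 of the 9156 genes that the array annotation names, on 11 of 24127 probe sets. WNT2B had 3 probe sets, DKK3 had 2, and the others had 1 each.

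Wnt ligands are secreted lipid-modified glycoproteins that bind frizzled receptors together with the co-receptors LRP5 and LRP6, and in the canonical pathway this stabilises beta-catenin, which then activates genes with TCF and LEF factors. FRZB and the SFRP proteins carry a domain like that of frizzled receptors and bind ligands outside the cell, whereas R-spondins act through LGR receptors to keep frizzled receptors at the cell surface and so strengthen a Wnt signal. In the ovary, Wnt and R-spondin signaling is best known from female gonad development and from granulosa cells, and the theca interna is the vascular, androgen-producing layer just outside the follicular basal lamina.

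Each array was hybridised with theca interna RNA of 1 follicle, from which the granulosa cells had first been removed by scraping, and the follicles came from ovaries of non-pregnant *Bos taurus* heifers. There were 5 small atretic follicles, in which the follicle was degenerating, 4 large healthy follicles, and 10 small healthy follicles, of which 5 had rounded and 5 had columnar granulosa cells next to the basal lamina. The paper began with 5 large follicles and left out 1 that it considered contaminated by granulosa cells, from genes such as CYP19A1. Small follicles of all kinds were 3 to 5 mm in diameter and large ones over 9 mm. None of the follicles was treated, and nothing states that each follicle came from a different animal, so that p-values measure the spread between follicles. According to the sample records, RNA was extracted with a RNAqueous Micro kit from atretic follicles, with Trizol and RNeasy columns from large ones and with a RNeasy mini kit from small healthy ones. The records give 0.25 µg of RNA for labelling from atretic follicles and 2 to 5 µg from the others. The paper's methods describe 1 procedure and a smaller amount for its thecal samples. It reports arrays of healthy follicles only, so the atretic group lies outside it. By the records, kit and follicle group cannot be told apart.

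The values are log2 signals after robust multi-array averaging, so a difference of 1 is a 2-fold change, and a probe set counted as detected in a follicle type when 50% or more of its arrays had a signal above 3. The 19 arrays correlated with each other at r of 0.897 to 0.992. The thecal steroidogenic markers, 7 of 7 on the array and tested, had mean signals of 6.41 to 8.71 in atretic, 7.96 to 9.46 in large and 7.63 to 8.97 in small healthy follicles. Of the granulosa cell markers, FSHR and FOXL2 were not over 3 on any array. However, INHA, FST, SERPINE2, HSD17B1, INHBA, GATM and AMH were over 3 on every array. On large array 2, INHBA was at 10.3 and FST at 10.2. Whether these signals came from remaining granulosa cells was not tested. CYP19A1, the granulosa aromatase, was at 5.8, 3.7 and 3.3 on 3 large arrays and at 3.9 on columnar array 1, and at 2.3 or less on the others. Poly-A control RNAs, which are added to the RNA before labelling, averaged 4.13 to 4.75 on atretic, 5.17 to 5.75 on large and 3.9 to 4.5 on small healthy arrays, so that they too stood apart on the large arrays.

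Of the 11 probe sets, 10 were detected in at least 1 group and were tested. The remaining one, the dimmest of the WNT2B probe sets, had signals of 1.9 to 2.4 on atretic, 2 to 2.2 on large and 2.1 to 2.4 on small healthy arrays and gives no level for this gene. Of the tested ones, SFRP2 passed this limit through the atretic and large follicles only, and it was over 3 in 3 of 5 atretic, 3 of 4 large and 2 of 10 small healthy follicles. WNT11 lay close to the limit on every array.

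Large follicles differed from small healthy ones in both directions within this group of genes. The ligand WNT2B fell in large follicles to a level 3.02-fold lower by 1 probe set and 2.40-fold lower by the other. FRZB, a ligand-binding antagonist, was 3.62-fold higher, and RSPO3, which strengthens Wnt signals, was 5.46-fold higher. The remaining antagonists SFRP1, SFRP2, SFRP4 and DKK3 and the ligand WNT11 did not pass the test. A call needed a Benjamini-Hochberg adjusted p under 0.05 in limma over all 15570 probe sets tested and at least a 2-fold change, and 0.706% of all tested probe sets met it. Of the 10 member probe sets 4 were called, 2 higher and 2 lower, against 0.629% of all probe sets called higher and 0.0771% called lower. WNT2B, FRZB and RSPO3 were already among the changed genes that the paper reports from these arrays. The paper also measured WNT2B and FRZB, but not RSPO3, by quantitative RT-PCR. Over its chosen genes it reports a high correlation of these fold changes with those of the arrays. As the members were chosen with earlier results known, these shares are no independent test. The median log2 difference was 0.60 over the 10 member probe sets and -0.005 over all tested.

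The ligand WNT2B was measured by a brighter probe set with log2 signals of 5.6, 4.8, 5.3 and 4.6 in the large follicles. In small healthy follicles it had 6.2, 6.7, 6.6, 6.5 and 7.1 in the rounded and 6.8, 7.4, 6.1, 6.7 and 6.6 in the columnar ones. Every large follicle was below every small healthy one. The means were 5.08 ± 0.46 (SD, n = 4) in large follicles and 6.67 ± 0.38 (SD, n = 10) in small healthy ones, a log2 difference of -1.60 (SE 0.22, 95% interval -2.06 to -1.13, limma adjusted p = 0.00168).

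The dimmer WNT2B probe set gave 3.5, 3.2, 3.4 and 3 in large follicles, at or just above the detection limit. The small healthy follicles had 4.2, 5, 4.2, 4.3 and 5 with rounded and 4.6, 5.1, 4.1, 4.4 and 4.5 with columnar granulosa cells. Again the groups did not overlap, and the log2 difference was -1.27 (SE 0.19, limma adjusted p = 0.00285). The groups were without overlap for 4 of the 10 member probe sets, against 1.58% of all tested, which is no independent test for the same reason.

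FRZB, the frizzled-related protein first known from cartilage, had signals of 7.7, 7.2, 7.2 and 7.6 in large follicles. The small healthy follicles had 5.4, 5.8, 5.4, 6.2 and 4.8 with rounded and 4.7, 5.8, 5.7, 5.8 and 6.1 with columnar granulosa cells. The lowest large follicle was 1 log2 unit above the highest small healthy one. The mean was 7.43 ± 0.26 in the large follicles (SD, n = 4), against 5.57 ± 0.50 in the small healthy ones (SD, n = 10), and the log2 difference was 1.86 (SE 0.24, 95% interval 1.33 to 2.38, limma adjusted p = 0.00133).

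RSPO3 had signals of 7.9, 5.8, 5.7 and 6.6 in large follicles. In small healthy follicles it had 4.7, 4.9, 3.6, 4.2 and 3.5 with rounded and 2.9, 3.8, 3.9, 3.8 and 5.2 with columnar granulosa cells. All large follicles were above all small healthy ones, although both groups were spread widely and the lowest large follicle was close to the highest columnar one. The log2 difference of 2.45 (SE 0.42, 95% interval 1.55 to 3.35, limma adjusted p = 0.00815) was the largest among the members. Its standard deviation was 1.02 in large follicles (n = 4) and 0.70 in small healthy ones (n = 10), and 98.9% and 97.6% of 15722 detected probe sets had a smaller one in these groups. The calls for WNT2B, FRZB and RSPO3 did not depend on any single follicle, but against the 5 rounded follicles alone RSPO3 (2.32, adjusted p = 0.119) and the dimmer WNT2B probe set (-1.27, adjusted p = 0.0677) were not called.

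**Figure D1:**
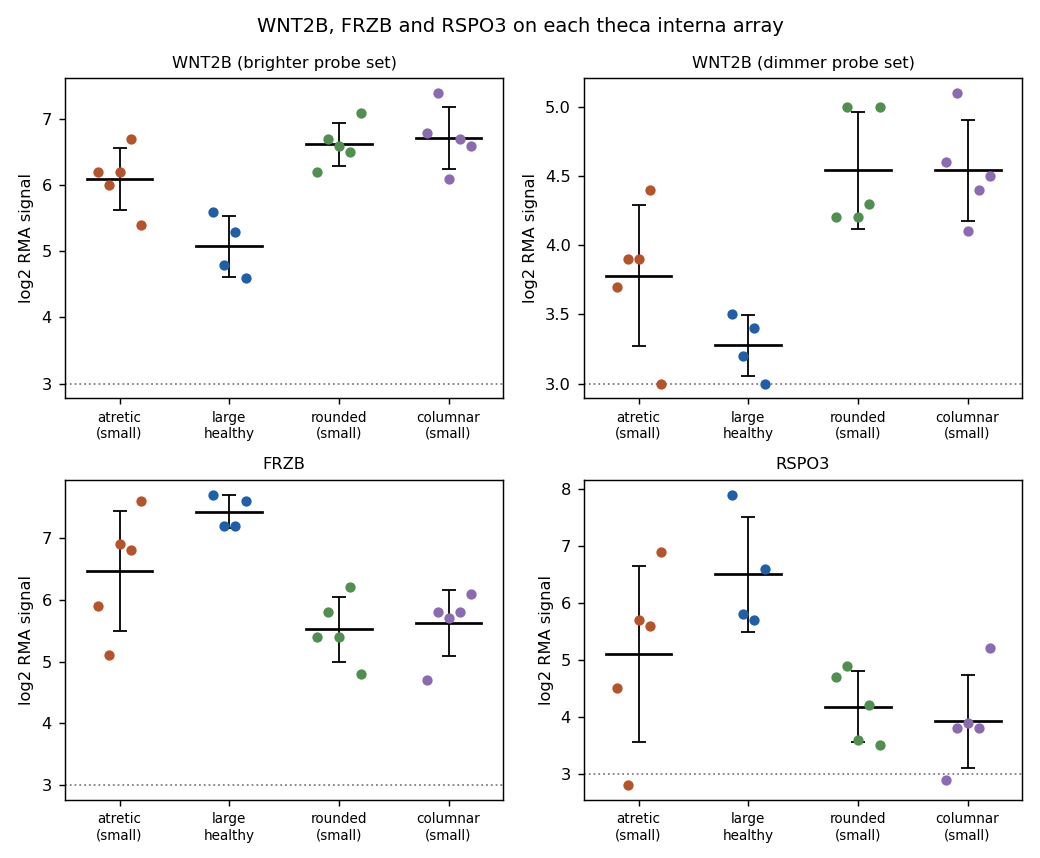
Log2 signal (y axis) of the 2 detected WNT2B probe sets, FRZB and RSPO3 by follicle group (x axis), with 1 point per array, a thick line at the group mean, error bars of 1 SD and a dotted line at the detection limit of 3. Every large follicle (n = 4) lies below every small healthy one for WNT2B and above every one for FRZB and RSPO3, and the 5 atretic follicles spread from 5.1 to 7.6 for FRZB and from 2.8 to 6.9 for RSPO3.

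The other antagonists had differences that did not pass the test. SFRP2 and SFRP4, like FRZB, bind Wnt ligands, and in large follicles their standard deviations were 1.17 and 1.13 (n = 4). SFRP2 was at 5, 4, 2.2 and 3.4 in large follicles, against 2.1, 3.1, 1.5, 2.5 and 1.7 in rounded and 2.2, 2.3, 2.3, 1.7 and 4.2 in columnar small healthy ones. SFRP4 was at 6, 3.6, 4.5 and 3.6 in large follicles, against 3.3, 3.5, 3.3, 4.4 and 4.1 in rounded and 2.4, 3, 2.9, 4.2 and 2.8 in columnar ones. The groups overlapped for both genes, and large follicle 1 was the highest of the 14 healthy follicles in each. As SFRP2 was over the detection limit in only 2 of the 10 small healthy follicles, its difference of the measured means, 1.29 (limma adjusted p = 0.127) and 0.84 without large follicle 1, gives no exact size. For SFRP4 the log2 difference was 1.03 (SE 0.43, 95% interval 0.13 to 1.94, limma adjusted p = 0.161), and 0.51 without large follicle 1.

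DKK3, a secreted glycoprotein of the dickkopf family whose effect on Wnt signals is less uniform than that of its relatives, was read by 2 probe sets. The brighter had 8.2, 8.6, 8 and 7.8 in large follicles, against 7, 8, 7.1, 7.5 and 8.3 in rounded and 7.6, 7.7, 7.2, 7 and 8.4 in columnar ones. The dimmer had 6.3, 6.8, 6.1 and 5.9 in large follicles, against 5.1, 6, 5.2, 5.3 and 6.4 in rounded and 5.7, 5.6, 5.6, 5.2 and 6.4 in columnar ones. Both probe sets had large follicle 2 highest, and both had rounded follicle 5 and columnar follicle 5 highest among the small healthy ones. The log2 differences of 0.57 (SE 0.26) and 0.63 (SE 0.25) had limma adjusted p-values of 0.192 and 0.146.

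SFRP1 was the steadiest of the antagonists in healthy follicles. It had signals of 5.3, 5.4, 5.5 and 5.6 in large follicles, against 5.1, 5.2, 5.5, 5.3 and 5.3 in rounded and 5.2, 5.4, 5.1, 5.3 and 5.3 in columnar ones. The log2 difference was 0.18 (SE 0.086, 95% interval -0.0025 to 0.36, limma adjusted p = 0.211), an interval that excludes a 2-fold change in either direction. WNT11, a ligand known mainly for beta-catenin-independent signaling, had 3.5, 3.3, 2.9 and 2.9 in large follicles, against 3, 3.2, 3.4, 3.6 and 3.1 in rounded and 3.4, 3.6, 3.4, 3.5 and 3.5 in columnar ones. These signals are so near the detection limit that a change of WNT11 could be missed, and the log2 difference was -0.22 (SE 0.13, limma adjusted p = 0.322).

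**Figure D2:**
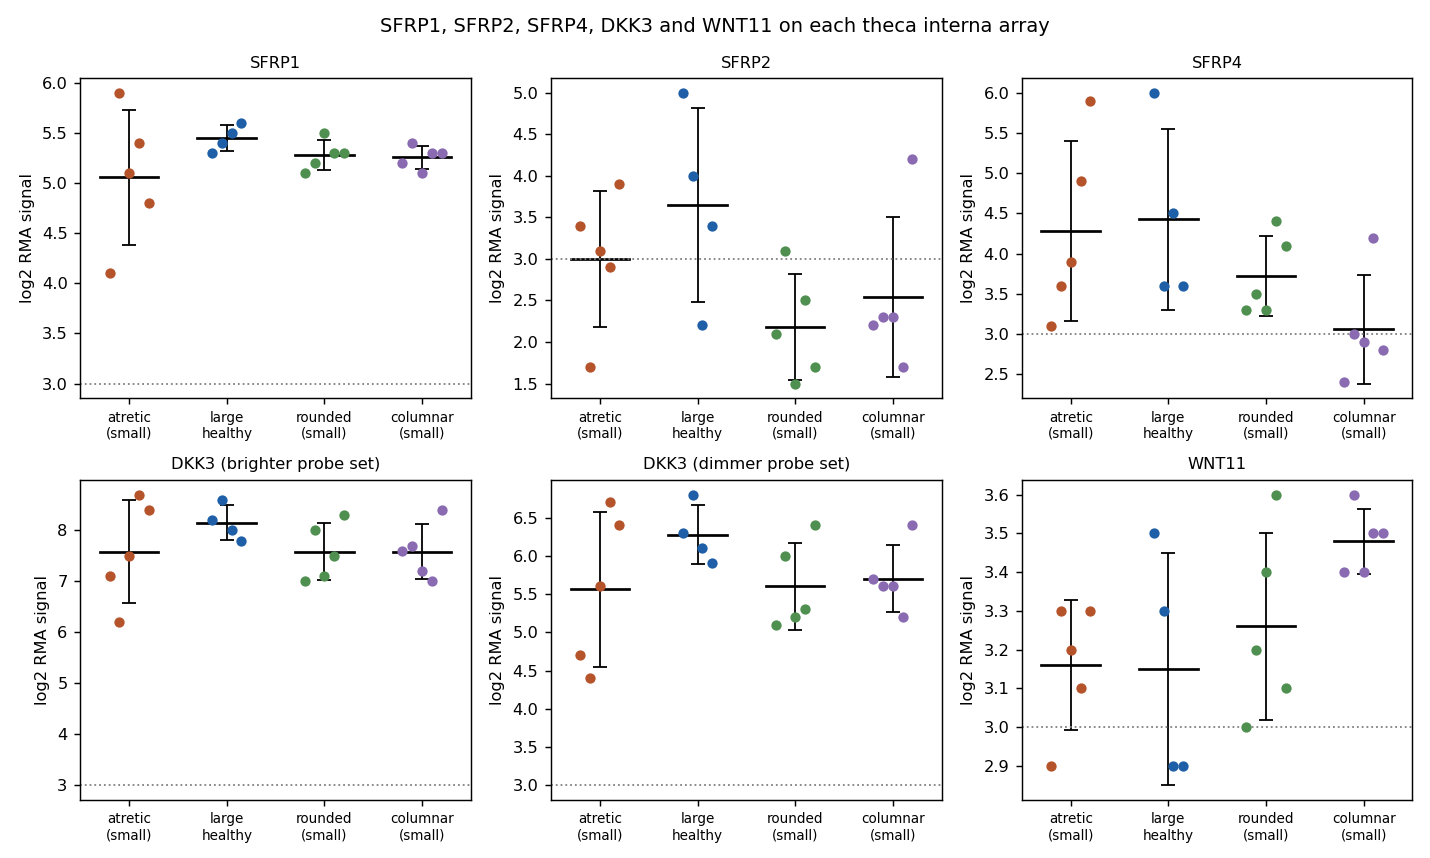
Log2 signal (y axis, a different range in each panel) of SFRP1, SFRP2, SFRP4, both DKK3 probe sets and WNT11 by follicle group (x axis), with 1 point per array, a thick line at the mean, error bars of 1 SD and a dotted line at the detection limit of 3. The groups overlap in every panel, and SFRP1 lies between 5.1 and 5.6 in all healthy follicles but between 4.1 and 5.9 in the 5 atretic ones.

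In bulk tissue, fewer cells of a type and less RNA per cell cannot be told apart. Markers of other cells were set beside these differences. Of 10 tested fibroblast and fibrillar matrix markers, 2 were called higher and 0 lower in large follicles. The called ones were MFAP5 (mean 6.475 in large, 4.5 in small healthy) and TNXB (5 and 3.91), which the paper also lists as changed. In all, 8 of the 10 were higher in large follicles, while DCN (11.125 and 11.17) and LUM (9.425 and 9.73) were lower. The mean signal of the list was 9.16 to 9.56 in large and 8.61 to 9.14 in small healthy follicles, only just without overlap. Of 10 smooth muscle and pericyte markers 1 was called higher, with a mean signal of 7.02 to 7.83 in large and 6.37 to 7.23 in small healthy follicles. Of 10 endothelial markers 0 were called, with 5.52 to 6.15 in large and 5.19 to 5.61 in small healthy follicles. Of 10 immune markers 0 were called, with 4.27 to 5.15 in large and 3.54 to 4.65 in small healthy follicles, and the granulosa markers, of which 0 of 9 were called, overlapped widely, at 5.58 to 7.01 in large and 5.64 to 6.43 in small healthy follicles. Without large follicle 2 and columnar follicle 1, where CYP19A1 was highest, the 4 calls of members stood. The median log2 difference of large minus small healthy follicles was 0.68 for smooth muscle, 0.52 for immune and 0.49 for endothelial markers. It was 0.355 for fibroblast and 0.235 for granulosa markers, against 0.60 for the members and -0.005 over all tested. Of the smooth muscle, immune and endothelial markers 9, 10 and 9 of 10 were higher in large follicles. The part of the other cell types in the differences of FRZB, RSPO3 and WNT2B was not tested.

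Atretic follicles, which were of the same size as the small healthy ones, showed 0 called member probe sets out of 10, against 3.68% of 15470 tested. At an unadjusted p under 0.05 limma gave 4 of the 10, against 45.2% of all, and the unmoderated model also called 0 members. The 2 member probe sets with an adjusted p under 0.05 were both of WNT2B and were below the 2-fold limit, against 31.9% of all probe sets with such a p. The median log2 difference was -0.045 over the member probe sets and 0.01 over all tested. With each array centred on 8 reference genes, which moved the median of all probe sets by 0.35, FRZB, RSPO3 and SFRP4 were called higher. The atretic means of WNT2B, FRZB and RSPO3 lay between those of large and small healthy follicles, which is an order of means only. FRZB and RSPO3 varied widely among the atretic follicles.

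The brighter WNT2B probe set had 6.2, 6, 6.2, 6.7 and 5.4 in atretic follicles, with a mean of 6.10 ± 0.47 (SD, n = 5) against 6.67 ± 0.38 in small healthy ones (SD, n = 10). The dimmer one had 3.7, 3.9, 3.9, 4.4 and 3, with a mean of 3.78 ± 0.51 (SD, n = 5) against 4.54 ± 0.37 (SD, n = 10). Atretic and small healthy follicles overlapped in both, and atretic follicle 5 alone lay within the range of the large follicles in the brighter one. The log2 differences were -0.57 (SE 0.21, limma adjusted p = 0.0460, from 0.0225 to 0.252 over the alternative settings) and -0.76 (SE 0.21, limma adjusted p = 0.0150, from 0.0101 to 0.105).

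FRZB had 5.9, 5.1, 6.9, 6.8 and 7.6 in atretic follicles, of which 3 were above all 10 small healthy follicles and 1 was near the lowest of them. Its mean was 6.46 ± 0.97 in atretic (SD, n = 5) and 5.57 ± 0.50 in small healthy follicles (SD, n = 10), a log2 difference of 0.89 (SE 0.34, 95% interval 0.17 to 1.61, limma adjusted p = 0.0540). RSPO3 had 4.5, 2.8, 5.7, 5.6 and 6.9, again with 3 of 5 atretic follicles above all small healthy ones and follicle 2 below all of them. Its log2 difference was 1.05 (SE 0.51, 95% interval -0.03 to 2.13, limma adjusted p = 0.121). Both genes were called when atretic follicle 2 was left out, at 1.23 (adjusted p = 0.0119) for FRZB and 1.63 (adjusted p = 0.0147) for RSPO3. Without atretic follicle 5 they were at 0.61 (adjusted p = 0.179) for FRZB and 0.60 (adjusted p = 0.367) for RSPO3. The adjusted p ran from 0.00855 to 0.179 for FRZB and from 0.0147 to 0.367 for RSPO3 across the alternatives.

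SFRP4 had 3.1, 3.6, 3.9, 4.9 and 5.9 in atretic follicles, and SFRP2 had 3.4, 1.7, 3.1, 2.9 and 3.9. Both overlapped the small healthy follicles, with log2 differences of 0.89 (SE 0.41, limma adjusted p = 0.103) for SFRP4 and 0.64 (SE 0.40, limma adjusted p = 0.217) for SFRP2. DKK3 had 7.1, 6.2, 7.5, 8.7 and 8.4 by the brighter and 4.7, 4.4, 5.6, 6.7 and 6.4 by the dimmer probe set. The mean of the brighter was the same in atretic and small healthy follicles, at 7.58, while the highest and the lowest of these 15 follicles were both atretic. SFRP1 had 4.1, 5.9, 5.1, 5.4 and 4.8, with the highest and the lowest of the 15 follicles again among the atretic ones. WNT11 had 2.9, 3.3, 3.2, 3.1 and 3.3, within or just below the range of small healthy follicles.

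The spread within the atretic group was wide for most members, but for several of them it was also wide in healthy follicles. For SFRP1 the standard deviation was 0.67 in atretic (n = 5), 0.13 in large (n = 4) and 0.13 in small healthy follicles (n = 10). Of 15722 detected probe sets, 96.7% had a smaller one than SFRP1 in atretic, 23.1% in large and 12.7% in small healthy follicles. For RSPO3 the standard deviation in atretic follicles was 1.54, and 99.8% of detected probe sets had a smaller one, against 98.9% in large and 97.6% in small healthy follicles. For FRZB it was 0.97 in atretic follicles, with 98.9% smaller, against 65.3% in large and 93.3% in small healthy ones. In the order atretic, large and small healthy, the shares were 98.0%, 99.4% and 98.4% for SFRP2 and 99.3%, 99.3% and 97.1% for SFRP4. No test of the spread itself was made.

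The atretic follicles at the ends of these ranges were the same for several members. Atretic follicle 5 had the highest signal of the group in FRZB, RSPO3, SFRP2 and SFRP4 and the lowest in both WNT2B probe sets. Atretic follicle 2 had the lowest signal in FRZB, RSPO3, SFRP2 and both DKK3 probe sets and the highest in SFRP1. Within the group, follicle 5 also had the highest mean of the fibroblast (9.33), smooth muscle (7.46), endothelial (6.15) and immune markers (5.89) and the lowest of the steroidogenic (6.41) and granulosa markers (4.85), whereas follicle 2 had the lowest of the fibroblast (8.77), smooth muscle (6.55) and endothelial markers (5.35). Immune markers were called higher in atretic than in small healthy follicles for 7 of 10 genes, with a mean signal of 4.67 to 5.89 in atretic and 3.54 to 4.65 in small healthy follicles, without overlap. Of the other lists, the granulosa marker INHBA (-1.47) and the steroidogenic CYP11A1 (-1.31) were called lower, and the endothelial CLDN5 (1.32) and the smooth muscle MYH11 (1.12) higher, in atretic follicles. The part of these cells in the spread of the Wnt regulators was not tested.

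**Figure D3:**
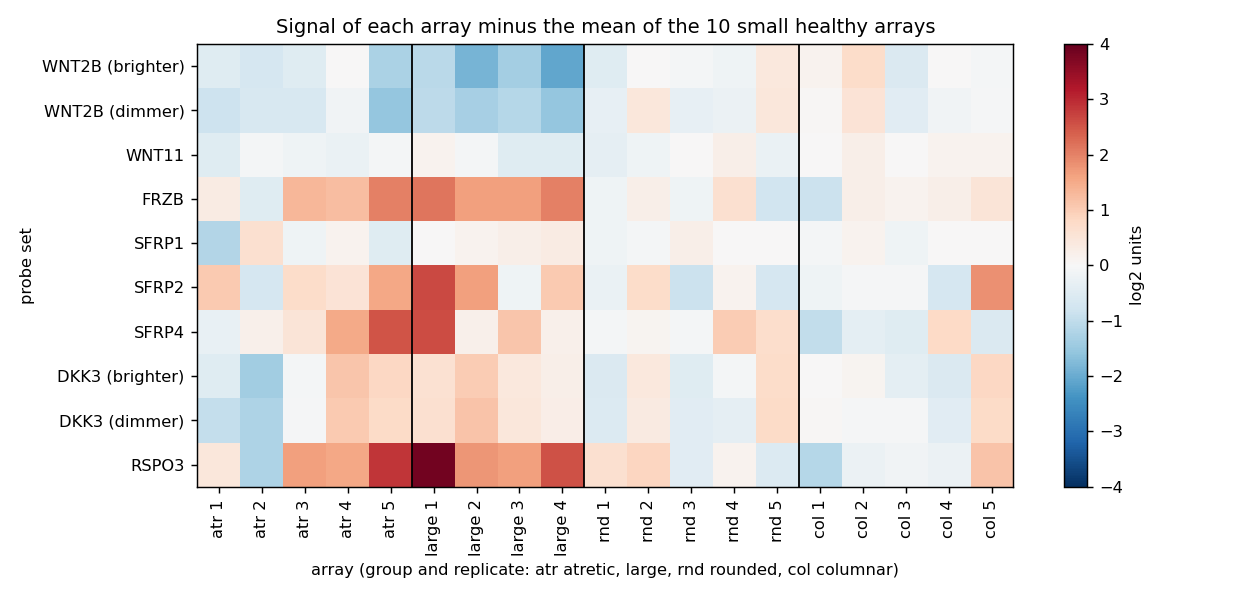
Colour map of the log2 signal of each array minus the mean of the 10 small healthy arrays, with the 10 tested probe sets as rows and the 19 arrays as columns, grouped as atretic, large, rounded and columnar. The 4 large arrays are all low in both WNT2B rows and high in the FRZB and RSPO3 rows, and among the atretic arrays number 5 has this pattern and number 2 does not for FRZB and RSPO3.

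Atretic follicles were also set directly against large ones, which tests the difference between the comparisons above, since both used the same small healthy follicles. In limma 0 of 15326 probe sets, 0% of those tested, were called, and so were 0 of 10 members. The smallest adjusted p was 0.126, 2763 of all probe sets and 1 of the 10 members had an unadjusted p under 0.05, and the unmoderated model also called 0. A fit of all 19 arrays called 43 probe sets, leaving out large follicle 1 gave 40 and leaving out large follicle 4 gave 92, in each case with 0 members. The member with an unadjusted p under 0.05 was the brighter WNT2B probe set, which averaged 6.10 ± 0.47 in atretic (SD, n = 5) and 5.08 ± 0.46 in large follicles (SD, n = 4). Its log2 difference was 1.03 (SE 0.27, 95% interval 0.42 to 1.63, limma adjusted p = 0.148), and 4 of the 5 atretic follicles were above all large ones. The dimmer one differed by 0.51 (SE 0.24, limma adjusted p = 0.305), also with 4 of 5 above all large ones.

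FRZB averaged 6.46 ± 0.97 in atretic (SD, n = 5) and 7.43 ± 0.26 in large follicles (SD, n = 4), a log2 difference of -0.97 (95% interval -1.93 to 0.0012, limma adjusted p = 0.278). RSPO3 averaged 5.1 ± 1.54 in atretic and 6.5 ± 1.02 in large follicles, a difference of -1.40 (95% interval -3.10 to 0.30, limma adjusted p = 0.361). Leaving out atretic follicle 2 gave -0.63 for FRZB and -0.83 for RSPO3, and leaving out atretic follicle 5 gave -1.25 and -1.85 in the same order. Both intervals run from about no difference to well past a 2-fold one, so that these follicles neither separate the atretic from the large level nor show that they were alike. The 5 remaining members had log2 differences of -0.72 for the dimmer and -0.57 for the brighter probe set of DKK3, -0.65 for SFRP2, -0.39 for SFRP1, -0.15 for SFRP4 and 0.01 for WNT11. The median over the 10 member probe sets was -0.48, against 0.015 over all tested.

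Rounded and columnar small healthy follicles were compared in a fit of the 14 healthy arrays, and 0 of 15570 probe sets, 0% of those tested, were called, with 0 of 10 members. At an unadjusted p under 0.05 limma gave 360 of all probe sets and 0 members, and the unmoderated model called 0. The greatest difference among members was that of SFRP4, with a mean of 3.72 ± 0.50 in rounded and 3.06 ± 0.68 in columnar follicles (SD, n = 5 each) and a log2 difference of 0.66 (SE 0.44, 95% interval -0.28 to 1.60). For FRZB the difference was -0.10 (95% interval -0.68 to 0.48) and for the brighter WNT2B probe set -0.10 (95% interval -0.62 to 0.42), so that a 2-fold difference lay outside both intervals. For RSPO3 it was 0.26 (95% interval -0.73 to 1.25), which does not exclude one.

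**Figure D4:**
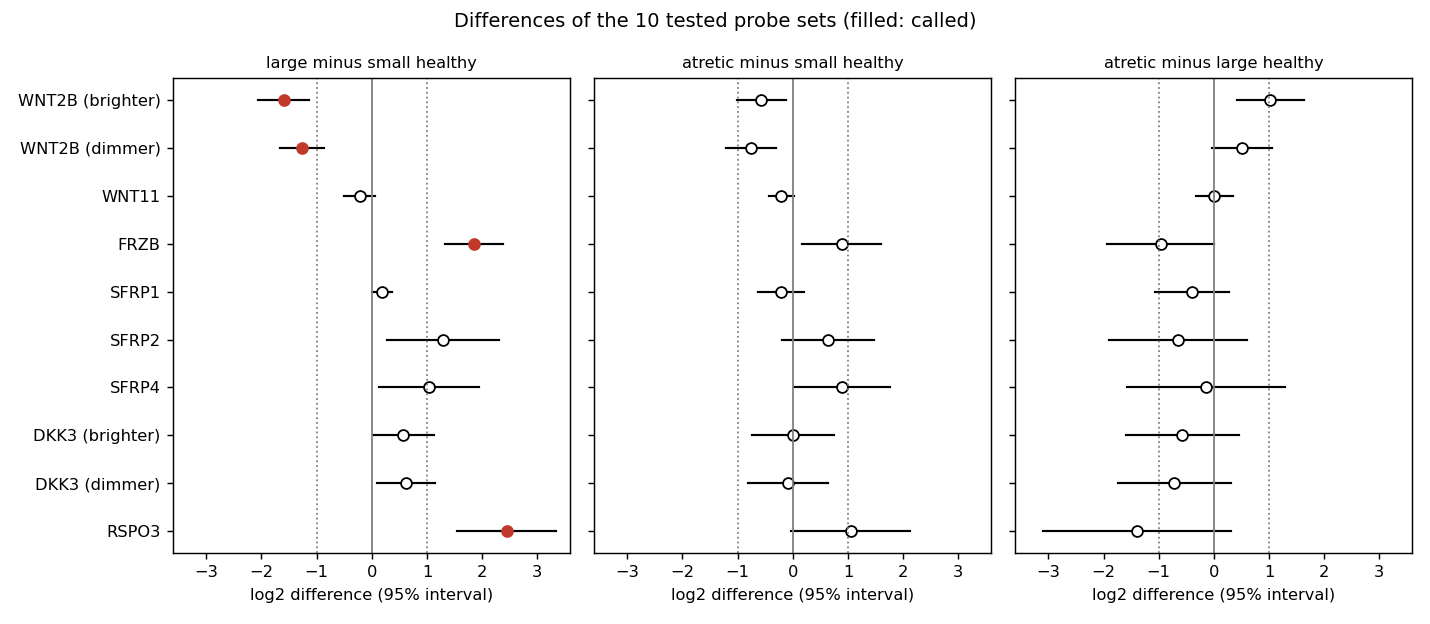
Log2 differences (x axis) with 95% intervals for the 10 tested probe sets (rows) in large minus small healthy, atretic minus small healthy and atretic minus large healthy follicles. Filled points were called, open points were not, and dotted lines mark a 2-fold change; in large follicles 4 points are filled, 2 on each side of 0, and in both atretic panels none is.

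By level, WNT2B ran from large (5.08 by the brighter probe set) through atretic (6.10) to small rounded (6.62) and columnar follicles (6.72). FRZB ran the opposite way for the first steps, with 7.43 in large, 6.46 in atretic, 5.62 in columnar and 5.52 in rounded follicles. RSPO3 had the order large (6.5), atretic (5.1), rounded (4.18) and columnar (3.92). None of these 3 genes was called between neighbours in these orders, that is, between atretic and large, between rounded and columnar, or between atretic follicles and either kind of small healthy follicle alone. Levels of different probe sets cannot be set against each other.

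The genes whose signal followed these members most closely over the 19 follicles were found among 7407 genes, by the mean absolute difference between signals centred on their own mean. For FRZB they were LTBP2, a latent TGFβ binding protein (0.32), CDH13, a cadherin without a cytoplasmic tail (0.34), and MYOC, or myocilin (0.36), against a mean deviation of FRZB itself of 0.80. For RSPO3 they were NRIP3 (0.42), CDH13 again (0.48) and LOC513055 (0.49), against a deviation of 1.13. The study lists the probe set of LOC513055 under the name RGS2. For WNT2B they were PABIR2 (0.24), the forkhead gene FOXS1 (0.34) and the histone methyltransferase EZH2 (0.39), against a deviation of 0.58. All 19 follicles share this measure, and a gene that differs with follicle size scores well by that alone. LTBP2 and CDH13 averaged 2.87 and 3.01 in small healthy follicles, about the detection limit, against 4.125 and 4.625 in large ones.

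Few other secreted members of the pathway could be found by their symbol in the array annotation, in which 10724 probe sets have none. Of 17 other Wnt ligands 1 had a probe set with a single symbol, and of 3 other R-spondins 1 did, and neither was detected. Of 11 other secreted antagonists 6 had such a probe set and 2 were tested, of which 0 were called. DKKL1, a dickkopf-like protein, had the smallest p of them in large against small healthy follicles, with a log2 difference of -0.23 (SE 0.16). WLS, which carries Wnt ligands to the cell surface, differed by 0.14 (SE 0.080), so that its interval of -0.036 to 0.31 excludes a 2-fold change.

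Downstream, 0 of 5 tested receptors and 0 of 13 tested beta-catenin pathway effectors were called between large and small healthy follicles. The smallest p among the receptors was that of ROR2, a receptor for beta-catenin-independent signals, at -0.48 (SE 0.34), and among the effectors that of LEF1, a DNA-binding partner of beta-catenin, at -0.77 (SE 0.23, limma adjusted p = 0.0747). Of 6 tested targets of beta-catenin 0 were called in this comparison, with a median log2 difference of -0.12. Only 1 of the 6, AXIN2, was higher in large follicles. It had 5.4, 5.9, 5.7 and 5 there, with a mean of 5.5 against 4.95 in small healthy follicles. In atretic against small healthy follicles 1 of the 6 was called. This was APCDD1, a membrane protein that inhibits Wnt signals, with 6.5, 6.2, 5.7, 6.1 and 6.5 in atretic follicles. Small healthy follicles had 5.8, 3.9, 5.5, 4.6 and 3.9 with rounded and 4.1, 4.1, 4.4, 5.3 and 3.8 with columnar granulosa cells, overlapping the atretic ones only at the highest rounded follicle. The log2 difference was 1.66 (SE 0.32, limma adjusted p = 0.00291). In large follicles APCDD1 was at 5.5, 3.6, 3.7 and 4.9, below every atretic one, and the log2 difference of atretic minus large follicles was 1.78 (SE 0.38, limma adjusted p = 0.138).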

How the data were processed

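Theca interna RNA was measured on 19 Affymetrix GeneChip Bovine Genome arrays of 1 colour. The authors summarised the probes by robust multi-array averaging with quantile normalization in Partek (version 6.5, per the submitters' processing notes) and deposited the log2 signals with 1 decimal. The sources used here do not state whether the 19 arrays were normalized as 1 set. Symbols came from the platform annotation (13317 probe sets with 1 symbol, 86 with several, 10724 with none). All 11 member symbols were the same in a newer RefSeq table. The array's number of follicles limits the precision, as arrays give no read depth.

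Groups and replicate numbers came from the sample titles. Control probe sets were left out. Groups were compared by limma 3.58.1 (lmFit and eBayes, R 4.3.3), tested on simulated data with 200 changed probe sets, and p-values were adjusted by Benjamini-Hochberg over every probe set tested. Lists used the brightest probe set of each gene and were not tested as sets. The members and lists were chosen with earlier results of these data known. The text names the members, called genes of the other Wnt lists or otherwise the gene with the smallest p, and the 3 genes most like each called member. AXIN2 is named as the only tested target of beta-catenin that was higher in large follicles. The alternatives were other filters, tests, scalings, array weights, the replicate number as a block, either kind of small healthy follicle alone, and leaving out arrays. The published comparison values were not used.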

Additional observations from a re-analysis of the deposited data

Results flagged for a closer look

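Each member probe set was examined in each of the 4 follicle groups for a follicle far from the others, by Dixon's test on the gap to the nearest follicle over the range of the group. Of 44 such groups 2 stood out, where chance gives about 1 in 20. FRZB was at 4.7 in columnar follicle 1, against 5.7 to 6.1 in the other columnar follicles. SFRP2 was at 4.2 in columnar follicle 5, against 1.7 to 2.3 in the others. Without columnar follicle 5 the log2 difference of SFRP2 between large and small healthy follicles was 1.49 (limma adjusted p = 0.0591), and it was 1.29 (adjusted p = 0.127) with it, over a range of 0.0591 to 0.331 across the alternatives. The difference was 0.84 (adjusted p = 0.294) without large follicle 1. Columnar follicle 5 was picked by its own high SFRP2 signal, so leaving it out raises the difference by construction. In this comparison SFRP2 was tested only because of the large follicles, as it was over 3 in just 2 of 10 small healthy ones. These p-values are therefore no fair test of SFRP2. Columnar follicle 1 was also one of the 2 follicles with the highest CYP19A1 that were left out together as an alternative.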

How the results depend on the processing

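Of 940 values of single members under the alternatives, 907 kept their side of the threshold with no change of sign. A further 2 lost a call, 5 gained one and 26 changed sign without being called. The 907 include all values of results whose main difference was 0, which had no sign to change. These were the brighter DKK3 probe set for atretic minus small healthy (-0.28 to 0.345) and for rounded minus columnar follicles (-0.19 to 0.205). The other was the dimmer WNT2B probe set for rounded minus columnar follicles (-0.13 to 0.14). Between large and small healthy follicles 110 probe sets were called. This became 54 with an unmoderated model, 183 with each array centred on reference genes, 59 without the follicles with the highest CYP19A1, 12 against rounded follicles alone, and 54 (without large follicle 4) to 162 (without large follicle 1) when each follicle was left out, with 70 without columnar follicle 1 and 72 without columnar follicle 2. The 4 called members stayed 4, except 2 against rounded follicles alone. Between atretic and small healthy follicles 569 were called, with 1020 after centring, 151 against rounded follicles alone and 444 to 706 with 1 follicle left out. There, 0 members became 3 after centring (FRZB 1.23, RSPO3 1.39, SFRP4 1.23, adjusted p = 0.00855, 0.0271 and 0.0221), and 0 to 2 with 1 follicle left out, 2 without atretic follicle 2. Between atretic and large follicles 0 became 43 in a fit of all 19 arrays, 1 after centring and 0 to 92 with 1 follicle left out, with 2 without atretic follicle 3, 40 without large follicle 1 and 92 without large follicle 4, and never a member. Centring moved the median of all probe sets by 0.17, 0.35 and 0.18 in these comparisons, and the share called higher to 95.6% from 89.1% between large and small healthy and to 86.2% from 56.6% between atretic and small healthy follicles, with 31.1% against rounded follicles alone. The cause of these changes was not tested.

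The values that changed sign were small. For atretic minus small healthy follicles, centring gave 0.25 for the dimmer DKK3 probe set and 0.13 each for WNT11 and SFRP1, and leaving out a follicle gave -0.38 to 0.20 for this DKK3 probe set and -0.42 to 0.03 for SFRP1. For atretic minus large follicles, SFRP4 was 0.021 after centring and -0.55 to 0.38 with a follicle left out, and WNT11 was -0.025 with the replicate block and down to -0.073 with a follicle left out. For rounded minus columnar follicles, SFRP1 was -0.021 after a second quantile normalization and FRZB 0.23 with array weights. With a follicle left out the range there was -0.33 to 0.08 for FRZB, -0.30 to 0.075 for the dimmer DKK3 probe set, -0.26 to 0.07 for the brighter WNT2B probe set, -0.59 to 0.055 for SFRP2 and -0.035 to 0.065 for SFRP1.

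The sample titles do not say whether follicles with the same replicate number in different groups shared anything besides that number. Of 27 such pairs 10 had deviations correlated above 0.1, from -0.34 to 0.57 with a median of 0.025. With the replicate block 77, 564, 0 and 0 probe sets were called in the order large with small healthy, atretic with small healthy, atretic with large, and rounded with columnar, and 4, 0, 0 and 0 members. Depth cannot be assessed on arrays, and signals near 3, as for WNT11, SFRP2 and the dimmer WNT2B probe set, can understate a difference.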
